A study of Homo sapiens with 24 samples.

Results

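The response to siRNA against GCDH was compared between A375 melanoma cells and cells labelled SKBR3, a breast cancer line, as the difference between the knockdown effects of the lines. GCDH encodes glutaryl-CoA dehydrogenase, a mitochondrial matrix enzyme that oxidises glutaryl-CoA on the route by which lysine and tryptophan are broken down. The effect in each line was the mean log2(TPM + 1) of siGCDH libraries minus that of siControl libraries, where TPM is the length-corrected share of transcripts. The difference was the A375 effect minus the SKBR3 effect, so a positive value means a larger rise, or a smaller fall, in A375. It used 12 of the 24 libraries of the series and the 16820 of 60504 gene rows whose mean over those 12 libraries was at least 1 TPM.

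The 4 groups were A375 cells of batch 2 with siGCDH, A375 cells of batch 2 with siControl, SKBR3-labelled cells with siGCDH and SKBR3-labelled cells with siControl. Each group had 3 libraries, from triplicate wells of transfected cells collected 48 hours after transfection, so p-values reflect the spread between wells of a single experiment in each line. All 12 libraries were made with the same poly(A) selection and directional kit. No siRNA other than siGCDH and siControl entered the comparison. The title of the series ties GCDH in melanoma to NRF2, and the comparison asks which parts of the response to siGCDH in a melanoma line differed from those in a line of another tissue.

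Cells meet a shortage of amino acids, misfolded protein or mitochondrial stress in part through the integrated stress response. There the transcription factor ATF4 is made from mRNAs whose translation is otherwise held back, and it turns on genes for amino acid synthesis, transport and tRNA charging as well as ATF3, DDIT3 and CHAC1. NRF2, encoded by NFE2L2, is another stress factor, which drives antioxidant, iron-handling and NADPH-producing genes such as HMOX1, NQO1 and the pentose phosphate enzyme TKT.

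The identity of the lines bears on what the comparison shows. SOX10, a transcription factor of the melanocyte lineage, had 530.5 ± 28.9 TPM in A375 siGCDH libraries and 456.7 ± 14.5 TPM in A375 siControl libraries (SD, n = 3 each) and was listed at 0 in all 6 SKBR3-labelled libraries. Of 8 melanoma and melanocyte markers, however, PMEL, MLANA, TYR and DCT averaged under 1 TPM in both A375 groups. The 8 summed to 652 to 716 TPM in A375 siGCDH and 633 to 670 TPM in A375 siControl libraries. They summed to 19.4 to 23.4 TPM in SKBR3-labelled siGCDH and 10.2 to 13.2 TPM in SKBR3-labelled siControl libraries. PMEL was higher there, at 11.8 and 3.49 TPM. SKBR3 is known as a luminal line with amplified ERBB2. ERBB2 averaged 41.6 ± 3.25 TPM in SKBR3-labelled siGCDH libraries and 25.5 ± 2.23 TPM in SKBR3-labelled siControl libraries, in the same range as 46.4 ± 5.12 TPM in SK-Hep1 siControl libraries. In A375 it averaged 21.8 TPM with siGCDH and 32.7 TPM with siControl. The adjacent amplicon gene GRB7 and the luminal keratin KRT19 both averaged under 1 TPM in SKBR3-labelled libraries. Of 12 breast luminal markers, 5 averaged under 1 TPM in each SKBR3-labelled group, and their summed level was 183 to 199 TPM with siGCDH and 132 to 133 TPM with siControl, against 293 to 305 TPM in A375 siGCDH and 413 to 432 TPM in A375 siControl libraries. The same 12 markers summed to 6460 to 6721 TPM in SK-Hep1 siControl libraries, where KRT19 averaged 1262 TPM, and the label of SK-Hep1, a liver-derived line used below only beside these results, was not checked further. In bulk samples such as these, fewer cells of a type and less RNA per cell cannot be told apart. The levels of ERBB2, GRB7 and KRT19 go against the label. The cells are therefore called SKBR3-labelled throughout and are given no other name.

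GCDH itself fell in both lines. It had 3.91, 3.41 and 3.83 TPM in A375 siGCDH libraries, against 20.7, 22.7 and 19.3 TPM in A375 siControl libraries. In SKBR3-labelled cells it had 5.60, 4.61 and 7.60 TPM with siGCDH, against 22.0, 22.7 and 22.8 TPM with siControl. The groups did not overlap in either line, and 17.8% of the control level was left in A375 and 26.4% in SKBR3-labelled cells. The effects were -2.21 and -1.78, and the difference of -0.43 ± 0.19 (SE) did not pass (limma, Benjamini-Hochberg adjusted p = 0.076). Without the second SKBR3-labelled siGCDH library the difference was -0.57 and passed (limma, adjusted p = 0.0135), and without the third it was -0.26, so the lines are not shown to have been knocked down to the same extent. Two-sided exact permutation of the 6 libraries of a line gave p = 0.1 in both, the smallest value that 3 against 3 libraries allow.

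Over all genes the effects of the lines were far from alike, and most of the imbalance lay in SKBR3-labelled cells. With limma and a Benjamini-Hochberg adjusted p under 0.05, the difference was called for 8643 of 16820 genes (51.4%), with 2447 positive (14.5%) and 6196 negative (36.8%). The effect in A375 called 5701 genes (33.9%) and that in SKBR3-labelled cells 9933 (59.1%). In A375 it called 2961 genes higher (17.6%) and 2740 lower (16.3%), and in SKBR3-labelled cells it called 7493 higher (44.5%) and 2440 lower (14.5%). The median gene had an effect of 0.01 in A375 and 0.25 in SKBR3-labelled cells, so that the median difference was -0.26, and a gene's difference is read below against that shift. With libraries brought to the same median, taken over genes of at least 5 TPM, the difference called 3739 genes positive (22.2%) and 4237 negative (25.2%).

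A gene could differ between the lines through either of them, and the calls within lines separate these cases. Of the 6196 negative differences, 3643 came from genes called higher in SKBR3-labelled cells and not called in A375, and 806 from genes called lower in A375 and not called in SKBR3-labelled cells. Of the 2447 positive differences, 940 were genes called lower in SKBR3-labelled cells and not called in A375, and 630 were genes called higher in A375 and not called in SKBR3-labelled cells. Genes that moved in opposite directions numbered 533 higher in A375 and lower in SKBR3-labelled cells (3.17% of genes tested), and 1074 lower in A375 and higher in SKBR3-labelled cells (6.39%). The 9 siGCDH minus siControl differences of A375 lay all above or all below the 9 of SKBR3-labelled cells for 7843 genes (46.6%).

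**Figure D1:**
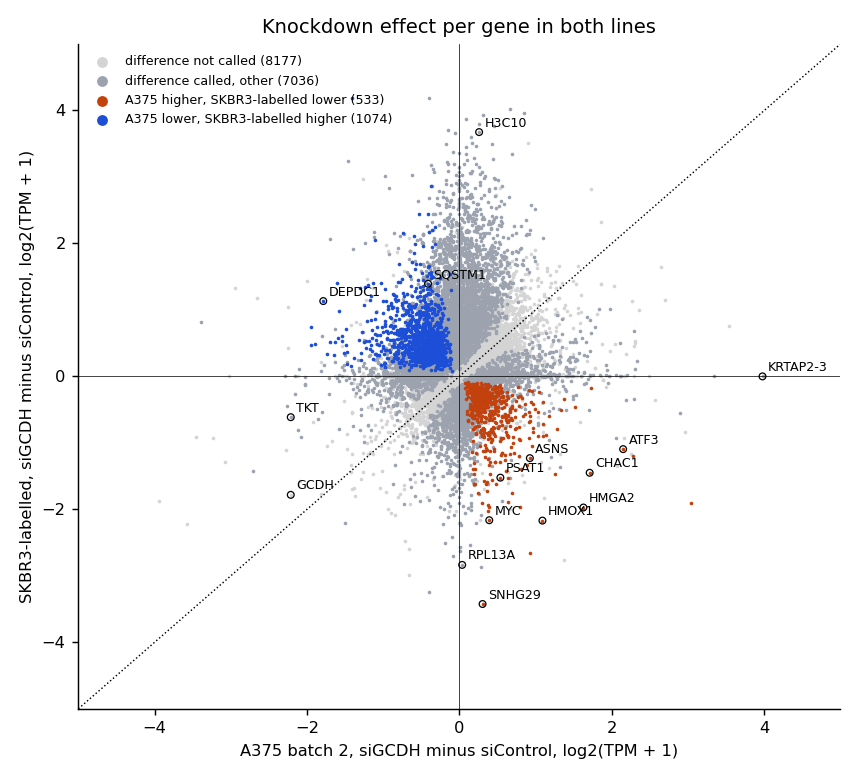
Each point is a gene, with its knockdown effect in A375 on the horizontal axis and in SKBR3-labelled cells on the vertical axis, both on the log2(TPM + 1) scale; the dotted diagonal marks equal effects. The 533 genes in orange and 1074 in blue moved in opposite directions, GCDH lies near the diagonal at -2.21 and -1.78, and ATF3, CHAC1, HMGA2 and HMOX1 lie low on the right.

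Genes of the ATF4 programme tended to rise in A375 and to fall in SKBR3-labelled cells. Of 40 genes listed for it, 39 were measured, and 20 had a positive and 2 a negative difference (14.5% and 36.8% over all genes), with a median difference of 0.41 against -0.26 over all genes. The list's median effect was 0.33 in A375 and -0.19 in SKBR3-labelled cells. Of its members 12 rose in A375 and fell in SKBR3-labelled cells, as did 3.17% of all genes. With scaling to the median, 25 members were positive and none was negative.

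Windows of 250 bases before a RefSeq transcript start are shown for ATF3, CHAC1 and ASNS, 3 genes that moved in opposite directions. These windows were chosen because they hold the letters TGATGNAA (N for any base) on either strand. The letters are the core of the C/EBP-ATF response element that ATF4 binds. A gene can have other starts, whose windows are not shown. The windows are chr1:212565157-212565406 on the plus strand for ATF3, chr15:40953221-40953470 on the plus strand for CHAC1 and chr7:97872409-97872658 on the minus strand for ASNS, in RefSeq's GRCh38.p14. Capitals mark the match, which reads TGATGGAA in ATF3, TTGCATCA (the reverse strand form) in CHAC1 and TGATGAAA in ASNS.
ATF3: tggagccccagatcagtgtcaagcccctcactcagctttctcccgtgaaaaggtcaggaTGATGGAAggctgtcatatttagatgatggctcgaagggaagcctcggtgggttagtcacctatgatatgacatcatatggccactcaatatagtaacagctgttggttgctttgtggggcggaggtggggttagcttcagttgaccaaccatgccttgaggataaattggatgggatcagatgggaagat
CHAC1: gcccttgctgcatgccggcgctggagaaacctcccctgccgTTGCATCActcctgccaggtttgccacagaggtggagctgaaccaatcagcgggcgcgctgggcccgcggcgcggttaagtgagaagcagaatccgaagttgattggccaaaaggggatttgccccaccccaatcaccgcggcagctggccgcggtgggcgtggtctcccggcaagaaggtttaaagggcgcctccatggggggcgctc
ASNS: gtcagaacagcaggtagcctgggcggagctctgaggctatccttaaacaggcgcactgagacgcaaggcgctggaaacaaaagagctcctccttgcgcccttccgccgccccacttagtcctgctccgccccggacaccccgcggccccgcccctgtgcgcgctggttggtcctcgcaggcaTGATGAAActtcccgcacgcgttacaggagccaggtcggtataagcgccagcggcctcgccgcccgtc
The match begins 191, 209 and 68 bases before that start in ATF3, CHAC1 and ASNS. These letters occur in 1104 of 35116 such windows (3.14%). Of the 34 listed ATF4 genes with a window, 8 held them. Of the 18 with both a window and a positive difference, 4 did, which is no higher a share than in the list as a whole. The 3.14% is a share of windows and not of genes, and a gene can have several windows. It is therefore no background for these gene counts. A match describes the letters and not a bound site.

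ATF4 mRNA itself differed. It had 591, 593 and 601 TPM in A375 siGCDH libraries, against 315.5, 314 and 315.9 TPM in A375 siControl libraries. The SKBR3-labelled siGCDH libraries had 922, 934 and 910.2 TPM, against 1069, 1069 and 1046 TPM in SKBR3-labelled siControl libraries. It rose by 0.92 in A375 and fell by 0.20 in SKBR3-labelled cells, where its control level was already above that of A375 with siGCDH, and the difference was 1.12 ± 0.03 (SE; limma, adjusted p = 9.6e-10). SK-Hep1 cells had an effect of 0.04, which was not called.

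ATF3, a transcription factor induced by ATF4, had the largest positive difference of the measured list members. It had 55.7, 57.4 and 51.2 TPM in A375 siGCDH libraries, against 11.6, 11.2 and 11.97 TPM in A375 siControl libraries, and 32.8, 34.0 and 33.5 TPM in SKBR3-labelled siGCDH libraries, against 72.8, 75.4 and 69.6 TPM in SKBR3-labelled siControl libraries. The siGCDH libraries were thus the high ones in A375 and the low ones in SKBR3-labelled cells, with no overlap. The difference was 3.24 ± 0.08 (SE; limma, adjusted p = 5.6e-10), made of 2.15 in A375 and -1.09 in SKBR3-labelled cells.

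CHAC1, which breaks down glutathione, followed the same course with wider spread. It had 10.7, 9.72 and 12.9 TPM in A375 siGCDH libraries, against 3.72, 1.81 and 2.76 TPM in A375 siControl libraries. Its levels in SKBR3-labelled cells were 2.44, 3.44 and 3.44 TPM with siGCDH, against 13.2, 11.8 and 6.63 TPM with siControl. The groups did not overlap in either line, and the difference was 3.16 ± 0.35 (SE; limma, adjusted p = 2.4e-05).

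The amino acid enzymes of the programme moved the same way. ASNS, which makes asparagine, had 108 ± 4.64 TPM in A375 siGCDH and 56.4 ± 4.14 TPM in A375 siControl libraries, and 126 ± 10.3 TPM in SKBR3-labelled siGCDH and 297 ± 11.6 TPM in SKBR3-labelled siControl libraries (SD, n = 3 each). PSAT1, of serine synthesis, averaged 204 ± 4.97 and 140.4 ± 2.16 TPM in A375 siGCDH and siControl libraries, and 128 ± 5.57 and 369.7 ± 10.8 TPM in SKBR3-labelled siGCDH and siControl libraries. The differences were 2.15 for ASNS and 2.06 for PSAT1, and both genes rose in A375 and fell in SKBR3-labelled cells.

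Other members of the pathway did not follow that split. DDIT3, which encodes the pro-apoptotic factor CHOP, rose in both lines, to 56.6 ± 4.61 TPM in A375 siGCDH against 21.7 ± 3.02 TPM in A375 siControl libraries, and to 34.6 ± 1.26 TPM in SKBR3-labelled siGCDH against 18.6 ± 2.28 TPM in SKBR3-labelled siControl libraries. Its difference of 0.49 ± 0.15 passed (limma, adjusted p = 0.021). TRIB3, a pseudokinase that feeds back on ATF4, rose by 0.24 in A375 and 0.37 in SKBR3-labelled cells, against all-gene medians of 0.01 and 0.25. Its difference of -0.14 ± 0.10 was not called (limma, adjusted p = 0.26). ATF3, ATF4 and CHAC1 thus differed by line where DDIT3 and TRIB3 had the same direction in both.

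Among the amino acid transporters, SLC1A5 and SLC7A5 fell in SKBR3-labelled cells. SLC1A5, a glutamine carrier, had 169 TPM in A375 siGCDH and 129 TPM in A375 siControl libraries, and 56.8 TPM in SKBR3-labelled siGCDH and 223 TPM in SKBR3-labelled siControl libraries, a difference of 2.35. SLC7A5, the large neutral amino acid exchanger, had effects of -0.14 in A375, which was not called, and -1.91 in SKBR3-labelled cells. In SK-Hep1 the effects were -2.02 for SLC1A5 and -1.91 for SLC7A5, both called. Of 22 amino acid transporters, 7 differences were positive and 6 negative (14.5% and 36.8% over all genes). With scaling to the median 10 were positive and 4 negative (22.2% and 25.2% over all genes). SLC25A13, the mitochondrial aspartate-glutamate carrier, was at -1.68, having fallen in A375 without a call in SKBR3-labelled cells. Of 20 aminoacyl-tRNA synthetases, 9 were positive and 5 negative, and 12 and 4 with scaling to the median, with TARS1 at 0.85 and CARS1 at 0.63 against KARS1, which charges lysine, at -0.81.

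**Figure D2:**
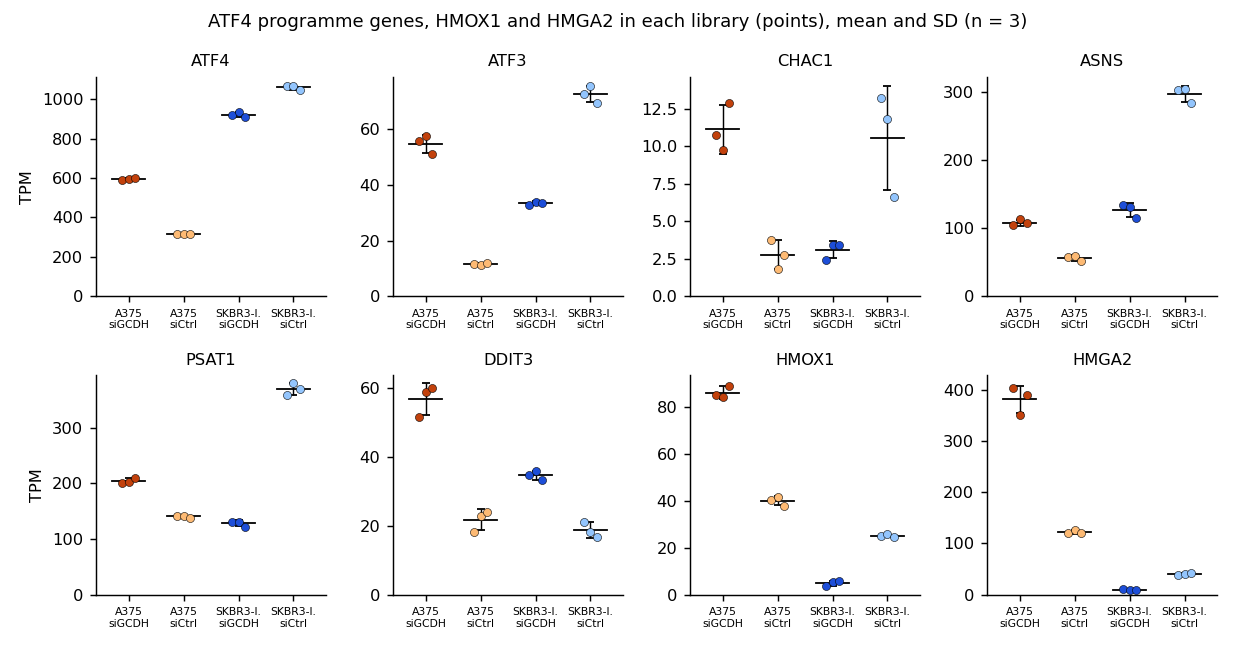
TPM of 8 genes in each of the 12 libraries (points), with the mean (line) and SD (bar, n = 3) per group, A375 to the left and siGCDH before siControl. ATF4, ATF3, CHAC1, ASNS, PSAT1, HMOX1 and HMGA2 were higher with siGCDH in A375 and lower with siGCDH in SKBR3-labelled cells, while DDIT3 was higher with siGCDH in both.

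The NRF2 targets had more negative than positive differences. Of 38 measured members, 6 differences were positive and 25 negative (14.5% and 36.8% over all genes), with a median of -0.50 against -0.26 over all genes. Within lines, 24 fell and 4 rose in A375, where 16.3% of all genes fell and 17.6% rose. In SKBR3-labelled cells 11 fell and 17 rose, where 14.5% of all genes fell and 44.5% rose. With scaling to the median the difference counts were 9 positive and 18 negative (22.2% and 25.2% over all genes).

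NFE2L2 had 96.0, 97.0 and 104.3 TPM in A375 siGCDH libraries, against 79.4, 76.3 and 77.5 TPM in A375 siControl libraries, and 42.5, 45.7 and 48.0 TPM in SKBR3-labelled siGCDH libraries, against 36.6, 38.2 and 37.1 TPM in SKBR3-labelled siControl libraries. It rose by 0.35 in A375 and by 0.28 in SKBR3-labelled cells, against all-gene medians of 0.01 and 0.25. Its difference of 0.07 ± 0.07 was not called (limma, adjusted p = 0.47). With scaling to the median the difference was 0.29 and passed (limma, adjusted p = 0.00657).

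SQSTM1, the autophagy receptor that binds the NRF2 inhibitor KEAP1, had 571, 572 and 584 TPM in A375 siGCDH libraries, against 781, 771 and 747 TPM in A375 siControl libraries. In SKBR3-labelled cells it had 201, 198 and 198 TPM with siGCDH, against 76.6, 72.2 and 76.8 TPM with siControl. It fell in A375 and rose in SKBR3-labelled cells, with a difference of -1.81 ± 0.04 (SE; limma, adjusted p = 5.6e-10). TKT fell in both lines but by 2.21 in A375, to 197 ± 6.69 TPM with siGCDH against 916 ± 21.8 TPM with siControl, and by 0.61 in SKBR3-labelled cells. FTH1, the ferritin heavy chain that stores iron, fell by 0.97 in A375, to 3042 ± 78.8 TPM with siGCDH against 5965 ± 69.5 TPM with siControl, and had an effect of 0.13 in SKBR3-labelled cells, under the all-gene median of 0.25 there. TKT and FTH1 also fell in A375 batch 1, a 3′ tag experiment in the same line, by 2.0 and 1.21.

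HMOX1, the haem-degrading enzyme, had the largest positive difference of the measured NRF2 targets. It had 85.0, 84.5 and 89.3 TPM in A375 siGCDH libraries, against 40.3, 41.8 and 37.9 TPM in A375 siControl libraries. The SKBR3-labelled siGCDH libraries had 3.6, 5.36 and 5.67 TPM, against 25.2, 25.7 and 24.4 TPM in SKBR3-labelled siControl libraries. The difference was 3.26 ± 0.16 (SE; limma, adjusted p = 8.1e-08), with no overlap in either line. In SK-Hep1 it fell by 2.95, and in A375 batch 1 its effect was 0.24 and not called.

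Lysine and tryptophan breakdown, the pathway of GCDH, showed no common direction. Of 20 measured members, 7 differences were positive and 7 negative (14.5% and 36.8% over all genes), with a median of -0.17. With scaling to the median 9 were positive and 2 negative (22.2% and 25.2% over all genes), with a median of 0.05. ALDH7A1, a dehydrogenase upstream of GCDH on the lysine route, had 50.4 TPM in A375 siGCDH and 113 TPM in A375 siControl libraries, and 114 TPM in SKBR3-labelled siGCDH and 112 TPM in SKBR3-labelled siControl libraries, so that it fell in A375 and was not called in SKBR3-labelled cells. ETFB, a subunit of the flavoprotein that takes electrons from GCDH, fell by 0.55 in A375 and had an effect of 0.21 in SKBR3-labelled cells, under the all-gene median of 0.25. HADHA, of fatty acid oxidation, had the opposite sign of difference, at 0.36, from a fall of 0.28 in SKBR3-labelled cells.

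Among the 10 largest positive differences that met the naming rule, 6 belonged to genes raised in A375 and lowered in SKBR3-labelled cells, namely ATF3, CHAC1, HMGA2, HMOX1, ARID3B and SNHG29. That pattern held for 21.8% of all positive differences and 3.17% of all genes. A ranking by the size of the difference favours effects of opposite sign, so the count describes these 10 only. HMGA2, a chromatin protein of embryonic and tumour cells, had 404, 352 and 389 TPM in A375 siGCDH libraries, against 121, 127 and 119.9 TPM in A375 siControl libraries. Its levels in SKBR3-labelled cells were 10.01, 9.64 and 8.90 TPM with siGCDH, against 38.01, 41.0 and 41.8 TPM with siControl. The difference was 3.6 ± 0.09 (SE; limma, adjusted p = 5.6e-10), and HMGA2 also rose in A375 batch 1, by 1.35, and fell in SK-Hep1, by 1.46. ARID3B, an AT-rich DNA-binding factor, had a difference of 2.73 ± 0.32. KRTAP2-3, a keratin-associated protein, had 45.4, 43.7 and 46.6 TPM in A375 siGCDH libraries, against 1.57, 1.99 and 2.28 TPM in A375 siControl libraries, and was listed at 0 in all 6 SKBR3-labelled libraries. Its difference of 3.98 is the A375 effect alone, and it rose in SK-Hep1 too, by 1.95.

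For RPL13A, SNHG29, SLC25A6 and ANAPC11 the fall in SKBR3-labelled cells was larger than the effect in A375. RPL13A, a protein of the large ribosomal subunit, had 4183, 4463 and 4140 TPM in A375 siGCDH libraries, against 4189, 4133 and 4140 TPM in A375 siControl libraries. In SKBR3-labelled cells it had 557, 552 and 575 TPM with siGCDH, against 4121, 3981 and 3938 TPM with siControl. The A375 groups overlapped and the SKBR3-labelled groups did not, and the difference was 2.87 ± 0.04 (SE; limma, adjusted p = 6e-12). SNHG29, a noncoding host gene of small nucleolar RNAs, had 1274 ± 11.4 TPM in A375 siGCDH and 1032 ± 6.06 TPM in A375 siControl libraries, and 99.6 ± 2.35 TPM in SKBR3-labelled siGCDH and 1079 ± 19.5 TPM in SKBR3-labelled siControl libraries, a difference of 3.73 ± 0.03. SLC25A6, a mitochondrial ADP/ATP carrier, fell by 0.40 in A375 and by 3.24 in SKBR3-labelled cells. ANAPC11, a catalytic subunit of the anaphase-promoting complex, had an effect of 0.14 in A375, which was not called, and fell by 2.54 in SKBR3-labelled cells.

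These falls were also found in SK-Hep1, a line that shares no library with the comparison. RPL13A fell there by 2.73, SNHG29 by 2.06, SLC25A6 by 2.19 and ANAPC11 by 1.65. Of the 10 genes with the largest positive differences, 6 fell, 1 rose and 3 were not called in SK-Hep1, where 18.2% of 14557 genes tested were called lower and 37.3% higher. In A375 batch 1, 4 of the 10 rose, 1 fell and 5 were not called, where 1.18% of 12868 genes were called higher and 6.73% lower.

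The list of cytosolic ribosomal proteins does not hold RPL13A. Of its 57 measured members, 40 differences were positive and 3 negative (14.5% and 36.8% over all genes), with a median of 0.24 against -0.26 over all genes. With scaling to the median 52 were positive and 1 negative (22.2% and 25.2% over all genes). In SKBR3-labelled cells 47 fell and 4 rose, with effects between -2.69 and 0.28, and 3 members fell by at least 1. In A375 12 rose and 12 fell, with effects between -0.83 and 0.27. RPS14, of the small subunit, had 2796, 3047 and 2918 TPM in A375 siGCDH libraries, against 2973, 3093 and 3201 TPM in A375 siControl libraries, and 485, 516 and 502 TPM in SKBR3-labelled siGCDH libraries, against 3213, 3002 and 3550 TPM in SKBR3-labelled siControl libraries. RPL6 had differences of 2.26 ± 0.05 and RPL12 of 0.90 ± 0.03, and in SK-Hep1 RPS14 fell by 1.79 and RPL6 by 2.16. Ribosomal protein genes have many near-identical pseudogenes among which reads are divided by estimate, so single members are uncertain. Their summed share of TPM was 15.0% with siGCDH and 15.0% with siControl in A375, and 14.7% and 17.98% in SKBR3-labelled siGCDH and siControl libraries.

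Falls of that kind also marked some nuclear-encoded mitochondrial genes. ATP5MC2, a subunit of the membrane ring of ATP synthase, had 483 ± 3.22 TPM in A375 siGCDH and 534 ± 21.1 TPM in A375 siControl libraries, and 140 ± 10.2 TPM in SKBR3-labelled siGCDH and 609 ± 22.6 TPM in SKBR3-labelled siControl libraries. Its difference was 1.97, and in SK-Hep1 it fell by 3.07. MRPS2, of the mitochondrial ribosome, rose by 0.47 in A375 and fell by 1.29 in SKBR3-labelled cells, and fell by 2.11 in SK-Hep1. GLUD1, which feeds glutamate into the TCA cycle, fell by 1.05 in SKBR3-labelled cells and by 0.10 in A375. Over 54 nuclear-encoded respiratory chain genes, however, 12 differences were positive and 13 negative (14.5% and 36.8% over all genes), with a median of -0.01 against -0.26 over all genes. NDUFB10, of complex I, had -1.01. With scaling to the median the counts were 25 positive and 4 negative (22.2% and 25.2% over all genes). With quantile normalization they were 9 positive and 19 negative, where 3858 of all genes were positive and 3787 negative. The balance of this list thus depends on the scale.

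The mitochondrially encoded transcripts showed the reverse. All 13 protein-coding mRNAs of the mitochondrial genome had negative differences, between -1.86 and -0.997, and all 13 rose in SKBR3-labelled cells, while 6 fell and 2 rose in A375. MT-ND1, a complex I subunit, had 585, 562 and 579.5 TPM in A375 siGCDH libraries, against 627, 602 and 655 TPM in A375 siControl libraries. The SKBR3-labelled siGCDH libraries had 2429, 2488 and 2483 TPM, against 856, 857 and 835 TPM in SKBR3-labelled siControl libraries. The summed share of TPM was 1.67 ± 0.0520% in A375 siGCDH and 1.81 ± 0.0685% in A375 siControl libraries, and 4.42 ± 0.118% in SKBR3-labelled siGCDH and 1.84 ± 0.0576% in SKBR3-labelled siControl libraries (exact permutation test, p = 0.1 in each line, the smallest possible). MT-CO3, of cytochrome c oxidase, rose by 1.09 in SKBR3-labelled cells, and the effects in SK-Hep1 were -0.11 for MT-CO3 and 0.59 for MT-ND1. Because TPM sums to a fixed total, a larger mitochondrial share lowers every other gene's TPM, and more mitochondrial RNA per cell cannot be told apart from less of other RNA.

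Of 36 mitosis and spindle genes, 25 fell and 1 rose in A375, with a median effect of -0.28 against 0.01 over all genes. In SKBR3-labelled cells 23 rose and 7 fell, with a median of 0.34 against 0.25 over all genes, of which 44.5% rose. Of the 36 differences, 2 were positive and 26 negative (14.5% and 36.8% over all genes), with a median of -0.67 against -0.26 over all genes. Of the members 19 fell in A375 and rose in SKBR3-labelled cells, as did 6.39% of all genes. With scaling to the median the counts were 6 positive and 23 negative. HMMR, a spindle-binding protein, had 25.0, 25.2 and 28.8 TPM in A375 siGCDH libraries, against 55.6, 50.3 and 50.7 TPM in A375 siControl libraries. Its levels in SKBR3-labelled cells were 124, 130 and 128 TPM with siGCDH, against 54.0, 58.7 and 59.4 TPM with siControl. The groups did not overlap in either line, and the difference was -2.10 ± 0.09 (SE; limma, adjusted p = 3.5e-08). BIRC5, the survivin gene of the chromosomal passenger complex, had a difference of -1.26 ± 0.07 and TOP2A, the mitotic topoisomerase, -1.01 ± 0.05. In SK-Hep1 HMMR rose by 1.01, BIRC5 by 0.74 and TOP2A by 0.92.

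DEPDC1, a mitotic protein, was among the genes with the largest effects in the pattern lower in A375 and higher in SKBR3-labelled cells. It had 12.1, 10.01 and 13.2 TPM in A375 siGCDH libraries, against 42.9, 41.4 and 44.1 TPM in A375 siControl libraries, and 149, 133 and 132 TPM in SKBR3-labelled siGCDH libraries, against 54.5, 64.1 and 69.2 TPM in SKBR3-labelled siControl libraries. HEXIM1, an inhibitor of the elongation kinase P-TEFb, had 22.1, 20.5 and 22.0 TPM in A375 siGCDH libraries, against 48.0, 47.2 and 52.4 TPM in A375 siControl libraries, and 35.1, 32.1 and 34.3 TPM in SKBR3-labelled siGCDH libraries, against 13.8, 13.7 and 14.6 TPM in SKBR3-labelled siControl libraries. For both genes the groups did not overlap in either line, and the differences were -2.92 ± 0.14 and -2.36 ± 0.09. CREBL2, a bZIP factor, had a difference of -2.58 ± 0.09 and TK2, the mitochondrial thymidine kinase, -2.44 ± 0.12. Both fell in A375 batch 1 as well, CREBL2 by 1.34 and TK2 by 2.62, and both rose in SK-Hep1, CREBL2 by 0.87 and TK2 by 1.10. The remaining genes of that pattern were ITGB4, a laminin-binding integrin, at -3.16 ± 0.46, the acyl-CoA hydrolase gene MBLAC2 at -2.58 ± 0.17, the adaptor gene AFAP1L2 at -2.33 ± 0.16 and the Ras effector gene RASSF5 at -2.54 ± 0.24.

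DNA replication and S phase genes, the other cell cycle list, did not hold a direction across scales. Of 37 measured, 2 differences were positive and 15 negative (14.5% and 36.8% of all genes), but 11 were positive and 5 negative with scaling to the median. MCM3, of the replicative helicase, fell by 0.79 in A375 and had an effect of -0.00 in SKBR3-labelled cells. The p53 targets rose in both lines, 22 of 30 in A375 with none falling (17.6% of all genes rose) and 21 of 30 in SKBR3-labelled cells with 2 falling (44.5% of all genes rose), with median effects of 0.61 and 0.46. Their differences were 10 positive and 5 negative, and 15 and 3 with scaling to the median. GADD45A, a growth arrest and DNA damage gene, had 156, 159 and 161 TPM in A375 siGCDH libraries, against 47.2, 47.6 and 47.9 TPM in A375 siControl libraries, and averaged 56.7 and 56.0 TPM in the SKBR3-labelled siGCDH and siControl libraries. SESN2, a stress-induced regulator of mTORC1, had a difference of 1.57 ± 0.09 and PMAIP1, which encodes NOXA, of 1.51 ± 0.08, with PMAIP1 rising in A375 and falling in SKBR3-labelled cells.

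Of 20 pro-apoptotic genes, 5 differences were positive and 4 negative (14.5% and 36.8% over all genes). With scaling to the median 7 were positive and 3 negative (22.2% and 25.2% over all genes). Of 11 anti-apoptotic genes, 3 were positive and 4 negative, and 4 and 3 with scaling. BAK1, a pore-forming executioner, had a difference of 1.54 ± 0.10 and MCL1, a survival protein, 1.25 ± 0.06, and both rose in A375 and fell in SKBR3-labelled cells.

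Early response and MAPK genes had more positive than negative differences. Over all genes 14.5% of differences were positive and 36.8% negative. Of 18 AP-1 and early response genes, 9 differences were positive and none was negative, with a median of 0.47, and 11 and none with scaling to the median. JUN, an AP-1 subunit, had 30.0 ± 2.32 TPM in A375 siGCDH and 8.36 ± 0.354 TPM in A375 siControl libraries, and 188 ± 5.90 TPM in SKBR3-labelled siGCDH and 212 ± 7.07 TPM in SKBR3-labelled siControl libraries. EGR1, an immediate early factor, had a difference of 1.83 ± 0.13. Of 21 MAPK output genes, 12 were positive and 2 negative with or without scaling. MYC had 14.5, 13.1 and 14.3 TPM in A375 siGCDH libraries, against 9.89, 11.4 and 9.99 TPM in A375 siControl libraries, and 36.1, 36.4 and 37.9 TPM in SKBR3-labelled siGCDH libraries, against 167, 170.5 and 167 TPM in SKBR3-labelled siControl libraries. Its difference of 2.56 ± 0.09 came mostly from the fall in SKBR3-labelled cells, and MYC fell in SK-Hep1 too, by 1.35. ID2, an inhibitor of helix-loop-helix factors, had a difference of 2.0 ± 0.17 and MEAK7, which acts with mTOR, of 1.84 ± 0.13, each from effects of opposite sign.

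The next 3 lists are read against 14.5% positive and 36.8% negative differences over all genes, and 22.2% and 25.2% with scaling to the median. Interferon-stimulated genes had no positive and 16 negative differences among 28 (1 and 13 with scaling to the median), and 14 of them rose in SKBR3-labelled cells with none falling, where 44.5% of all genes rose. ISG15, a ubiquitin-like modifier, had 11.2 ± 1.03 TPM in A375 siGCDH and 11.3 ± 1.71 TPM in A375 siControl libraries, and 20.2 ± 0.719 TPM in SKBR3-labelled siGCDH and 6.78 ± 0.659 TPM in SKBR3-labelled siControl libraries. The NF-kB list of 24 had 4 positive and 12 negative differences, and 7 of each with scaling to the median. Of these genes the chemokine CCL2, listed at 0 in SKBR3-labelled cells, fell to 9.76 TPM in A375 siGCDH libraries against 50.8 TPM in A375 siControl libraries. The cytokine gene IL11 rose in A375, to 50.6 TPM with siGCDH against 12.6 TPM with siControl, and was under 1 TPM in SKBR3-labelled cells. TGF-beta, YAP and matrix genes had 10 positive and 15 negative differences of 37, and 13 and 11 with scaling to the median. The YAP targets CCN2, ANKRD1 and AMOTL2 were at 1.57, 1.76 and 1.86, each rising in A375 and falling in SKBR3-labelled cells. Their levels in SKBR3-labelled cells were low, however. CCN2 averaged 1.00 TPM with siGCDH and 1.90 TPM with siControl there, ANKRD1 0.25 and 0.88 TPM, and AMOTL2 1.96 and 5.53 TPM.

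The lists for lipids, sugar and protein quality are read against 14.5% positive and 36.8% negative differences over all genes, and 22.2% and 25.2% with scaling to the median. Cholesterol synthesis had 12 positive and 8 negative of 24, and 13 and 4 with scaling, with the lanosterol synthase LSS at -1.03 and INSIG1, a sterol-regulated ER protein, at 0.71. Fatty acid synthesis had 6 positive and 2 negative of 17, and 11 and 2 with scaling, and its median effect was negative in both lines, at -0.23 in A375 and -0.43 in SKBR3-labelled cells. ACSL3, which activates fatty acids, fell by 0.20 in A375 and 0.90 in SKBR3-labelled cells. Glycolysis and hypoxia genes had 8 positive and 18 negative of 34, and 10 positive and 11 negative with scaling to the median, with the enolases apart, ENO1 at 0.77 and ENO2 at -1.95. The ER list had 12 positive and 9 negative of 30, and 17 and 9 with scaling, and the chaperone CALR fell by 2.03 in A375, to 156 TPM with siGCDH against 640 TPM with siControl, and by 0.12 in SKBR3-labelled cells. Autophagy and lysosome genes had 6 positive and 15 negative of 35, and 12 of each with scaling to the median. BECN1, an initiator of autophagy, had 37.7 ± 4.35 TPM in A375 siGCDH and 107 ± 2.78 TPM in A375 siControl libraries, and 138 ± 3.38 TPM in SKBR3-labelled siGCDH and 83.4 ± 3.18 TPM in SKBR3-labelled siControl libraries, a difference of -2.21 ± 0.10. Heat shock genes had 7 positive and 4 negative of 18, and 11 and 2 with scaling. Proteasome genes had 7 positive and 8 negative of 31, and 14 and 2 with scaling, so that their balance depends on the scale.

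**Figure D3:**
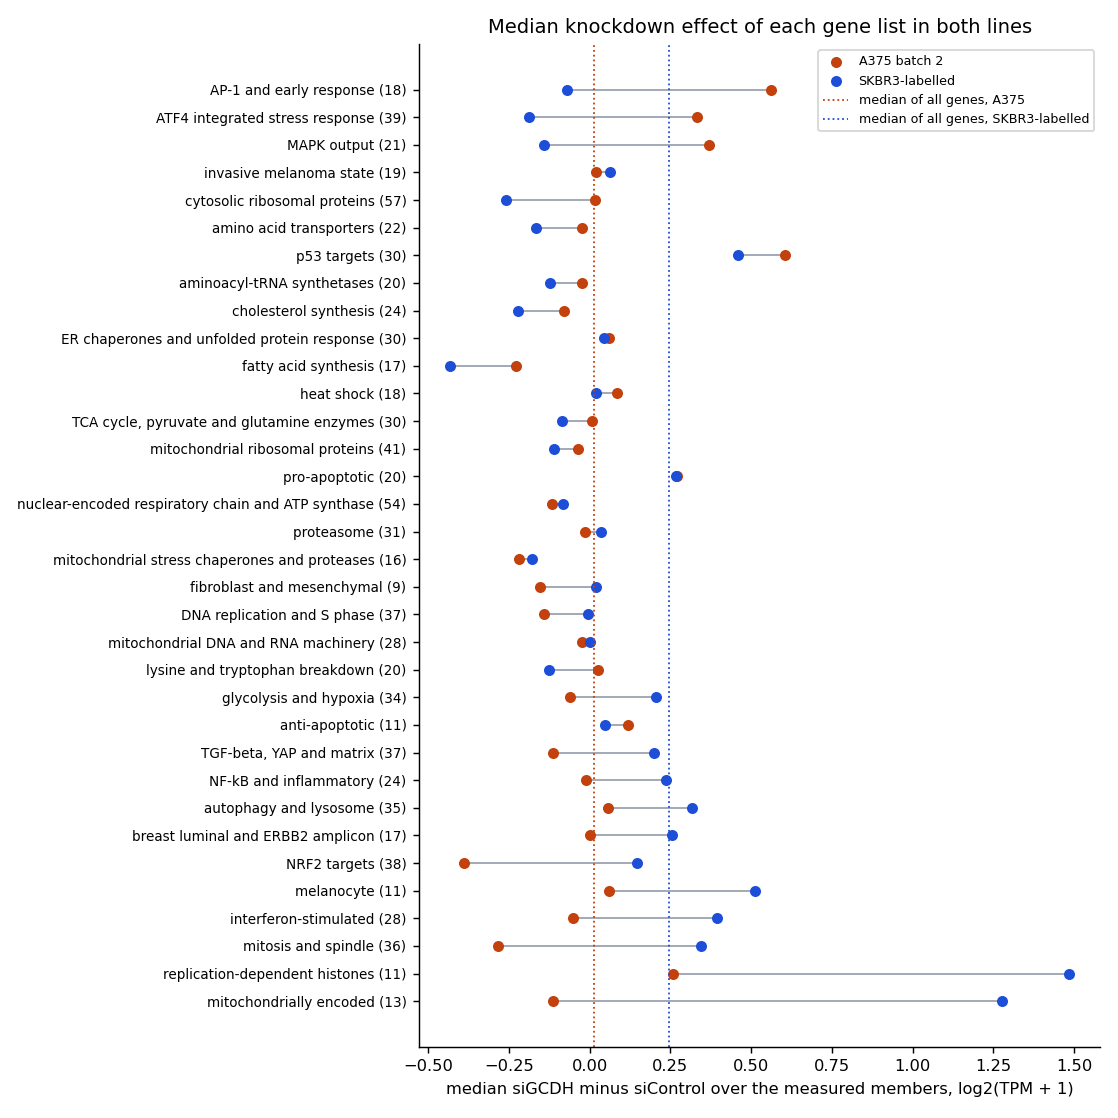
Median knockdown effect over the measured members of each gene list (number in parentheses), A375 in orange and SKBR3-labelled cells in blue, on the log2(TPM + 1) scale, with dotted lines at the all-gene medians of 0.01 and 0.25. For the ATF4, AP-1 and MAPK lists the A375 point lies to the right of the SKBR3-labelled point. For the NRF2, mitosis, histone and mitochondrially encoded lists it lies to the left. The NRF2 median in SKBR3-labelled cells, 0.15, is below the all-gene median there. The p53 targets lie furthest right in A375, at 0.61.

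The largest negative differences came from transcripts that were low in A375 and in SKBR3-labelled siControl libraries and higher in SKBR3-labelled siGCDH libraries, with ITGB4 the exception. Of the 10 named, 6 were noncoding RNA genes, where 13252 of all 16820 genes tested were protein-coding. DHX35-DT, STAM-DT, EIF5-DT and FAM193B-DT are divergent transcripts, which start near a coding gene's promoter and run away from it. DHX35-DT, STAM-DT, FAM193B-DT, LINC01238 and CBY3 passed the expression filter and the naming rule's minimum level through the SKBR3-labelled siGCDH libraries alone. EIF5-DT, H3C10 and DYNLT2 also reached that minimum level of 5 TPM in the SKBR3-labelled siGCDH libraries alone. The low level of all these genes in the other groups is therefore no separate result, and the noncoding count describes the 10 only. STAM-DT had 0.05, 0.13 and 0.31 TPM in A375 siGCDH libraries, against 0, 0.24 and 0.40 TPM in A375 siControl libraries, and 31.9, 30.4 and 28.0 TPM in SKBR3-labelled siGCDH libraries, against 1.3, 1.29 and 1.80 TPM in SKBR3-labelled siControl libraries. EIF5-DT had a difference of -3.62 ± 0.40 and DHX35-DT, listed at 0 in A375 siGCDH libraries, averaged 17.9 TPM in SKBR3-labelled siGCDH and 1.66 TPM in SKBR3-labelled siControl libraries. H3C10, on chr6:27810064-27811300 (hg38), is a replication-dependent histone H3 gene, of a class whose mRNAs normally end in a stem-loop and not in a poly(A) tail. It had 2.05, 1.15 and 1.79 TPM in A375 siGCDH libraries, against 1.41, 0.84 and 1.41 TPM in A375 siControl libraries. In SKBR3-labelled cells it had 39.2, 37.1 and 35.8 TPM with siGCDH, against 2.44, 1.67 and 1.95 TPM with siControl. In A375 the groups of both genes overlapped, and in SKBR3-labelled cells they did not.

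The remaining genes among the 10 were the intergenic RNA gene LINC01976 at -3.45 ± 0.18, the antisense gene LINC01238 at -3.14 ± 0.27, the coding genes CBY3 at -3.27 ± 0.19 and DYNLT2 at -3.25 ± 0.27, and ITGB4. Only 3 of the 10 passed the expression filter in SK-Hep1, where EIF5-DT rose by 1.66, DYNLT2 had an effect of 0.06 and ITGB4 fell by 1.79.

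Transcript classes were chosen after their values were seen. A low transcript could pass the filter on the mean of 12 libraries through the SKBR3-labelled siGCDH libraries alone, so counts over the members that passed describe them and support nothing. Of 265 genes with symbols ending in -DT, 195 differences were negative (73.6%) and 1 was positive, against 36.8% and 14.5% of all genes, and 185 were negative and 2 positive with scaling to the median. Their median effect was 0.00 in A375 and 1.3 in SKBR3-labelled cells. Antisense genes had a median difference of -0.74 over 1074 genes and intergenic noncoding RNAs -0.74 over 846, while protein-coding genes had -0.21 over 13252. Genes that averaged 2 TPM or more in the 6 A375 libraries pass the filter whatever their level in SKBR3-labelled cells. Among those, 56 of 91 -DT genes had a negative difference (61.5%) and 1 a positive one, against 34.9% and 17.5% of all 13285 such genes. Negative differences were found for 36.6% of the 454 antisense genes left and for 29.4% of the 384 intergenic noncoding RNAs left, against the same 34.9%. Positive differences were found for 7.49% and 12.8% of them, against 17.5%. Their median differences were -0.46 and -0.25, against -0.18 over all such genes. Of 11 replication-dependent histone genes, 7 differences were negative and 1 was positive. The kit was directional but the strand setting of the counting is not given in the sources used here, so antisense and divergent transcripts cannot be fully told apart from overlapping genes.

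The shift in SKBR3-labelled cells also ran with expression level, taken as the mean of the same 12 libraries. Genes with a mean of 1 to 2 TPM had a median effect of 0.02 in A375 and 0.45 in SKBR3-labelled cells, and those of at least 500 TPM had 0.01 in A375 and -0.17 in SKBR3-labelled cells. With the level taken from the A375 libraries alone, the median effect in SKBR3-labelled cells was 0.30 at 2 to 5 TPM, 0.18 at 20 to 50 TPM and -0.17 at 500 TPM or more. Without the filter, over 34089 genes, the all-gene median effect was 0.10 in SKBR3-labelled cells. The number of genes at 1 TPM or more was 15282 in A375 siGCDH and 14930 in A375 siControl libraries, and 17174 in SKBR3-labelled siGCDH and 15164 in SKBR3-labelled siControl libraries. Antisense and intergenic RNAs took 1.34% of TPM in A375 siGCDH and 1.17% in A375 siControl libraries, and 2.3% in SKBR3-labelled siGCDH and 1.26% in SKBR3-labelled siControl libraries. These values move with the negative differences of low-level genes, and their part in the results was not tested.

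**Figure D4:**
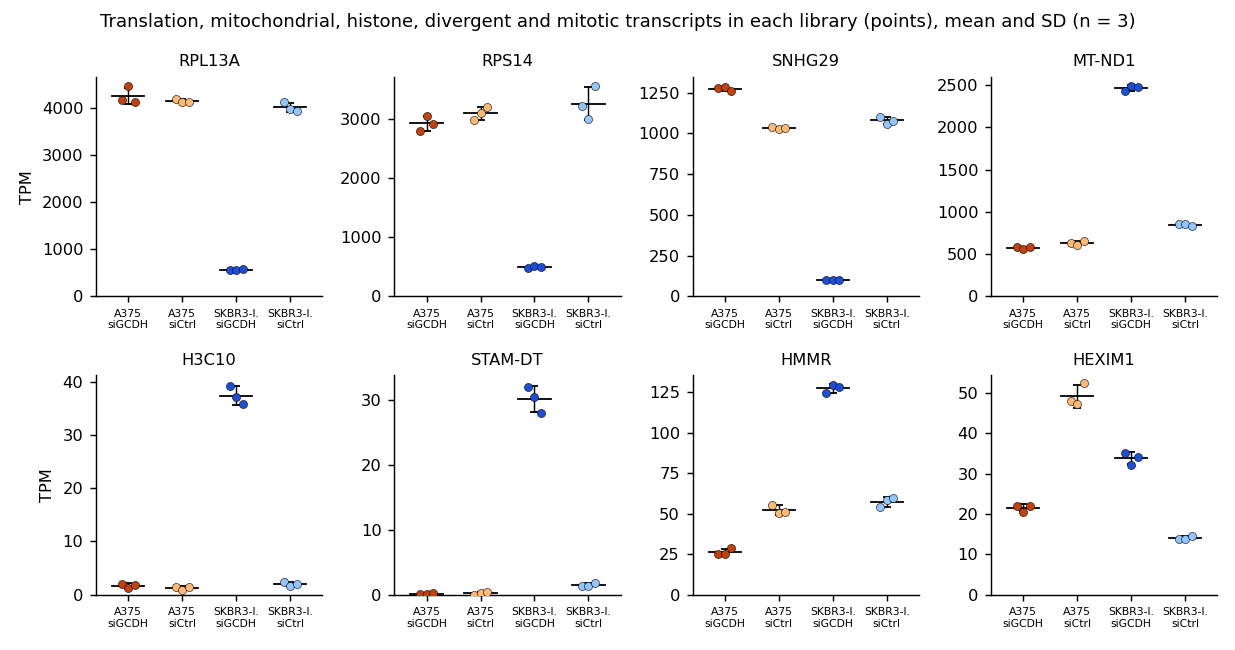
TPM of 8 genes in each of the 12 libraries (points), with the mean (line) and SD (bar, n = 3) per group, A375 to the left and siGCDH before siControl. SKBR3-labelled siGCDH libraries stand apart, low for RPL13A, RPS14 and SNHG29 and high for MT-ND1, H3C10, STAM-DT and HMMR. Within A375, SNHG29, HMMR and HEXIM1 also differ, and MT-ND1 by less.

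**Figure D5:**
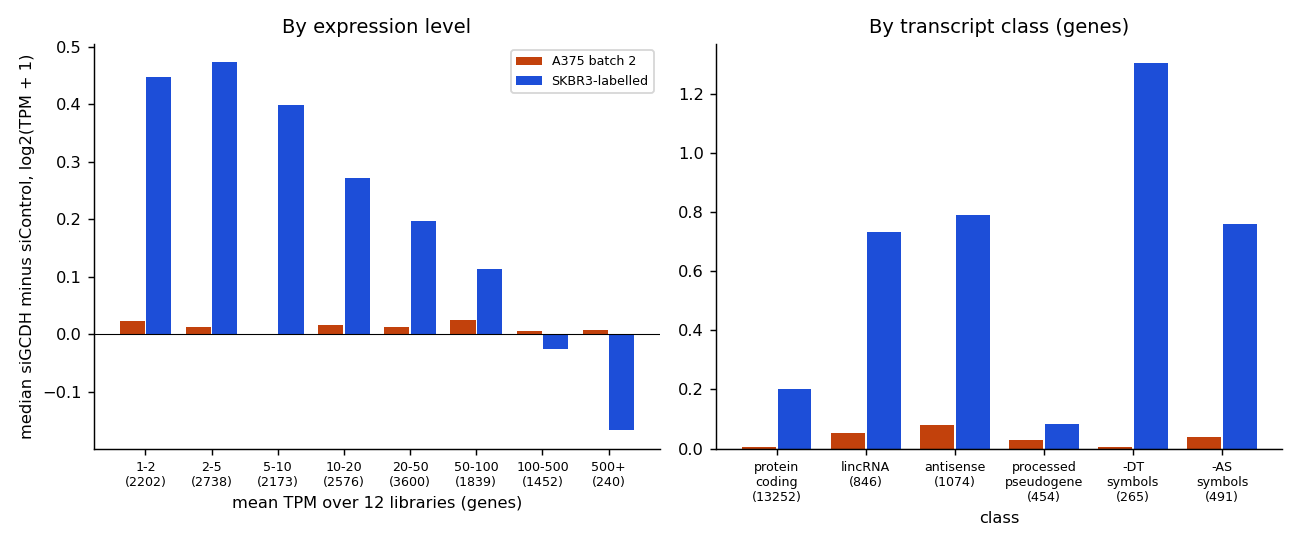
Median knockdown effect on the log2(TPM + 1) scale by mean expression level over the 12 libraries (left) and by transcript class (right), with A375 in orange, SKBR3-labelled cells in blue and the number of genes in parentheses. A375 medians stay near 0, and SKBR3-labelled medians run from 0.45 at 1 to 2 TPM to -0.17 at 500 TPM or more and reach 1.3 for -DT symbols.

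Cell type genes gave no single direction. All genes had 14.5% positive and 36.8% negative differences, and 22.2% and 25.2% with scaling to the median. Of 11 measured melanocyte genes, 3 differences were positive and 6 negative, and 3 and 5 with scaling to the median, with the glial and melanocyte gene S100B falling by 1.16 in A375. Of 17 breast luminal genes, 3 were positive and 7 negative, and 3 and 4 with scaling, with KRT18, a simple epithelial keratin, at -1.47 and XBP1, a secretory pathway factor, at 0.69. Endothelial, hepatocyte and fibroblast genes had 4, 4 and 9 measured members, with 1 positive and 2 negative, none positive and 1 negative, and none positive and 2 negative differences.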

How the data were processed

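The deposited table holds TPM values (length-corrected shares of transcripts) that the authors made for 60504 rows. The submitters' processing notes name RSEM 1.3.1, STAR 2.7.0d, cutadapt 2.3 and the build hg38. Which annotation and strand setting were used is not given in the sources used here. Because TPM keeps no read totals, depth is unknown and no counting interval is given. RSEM shares reads among near-identical copies by estimate.

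Values were transformed as log2(TPM + 1), a scale that understates changes of low genes, and the 12 libraries were fitted with limma 3.58.1 in R 4.3.3 (4 group means, eBayes with trend, 8 residual degrees of freedom). Two-sided p-values received Benjamini-Hochberg adjustment over 16820 genes, with a threshold of 0.05. SK-Hep1 and A375 batch 1, which used a 3′ tag kit, were fitted on their own 6 libraries. Replicates within a group correlated at 0.978 or more and none were identical. On simulated data of 16820 genes with 100 changed at each size, the fit recovered 37% of differences of 0.5 and 78% of differences of 1, with 5 false calls. The changed genes were drawn from those well above the filter in SKBR3-labelled siControl libraries, and the noise was normal and independent. Far fewer genes were changed than the 51.4% called in the data, so these rates do not describe the fit to the data.

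The comparison, its 36 gene lists and its naming rule were chosen with earlier results of these data known. The rule took GCDH, NFE2L2, ATF4, ATF3, DDIT3, CHAC1 and TRIB3, the 10 largest called differences in each direction with at least 5 TPM in the highest group and no overlap between the lines' 9 differences, the 8 genes of each opposite pattern with the largest smaller effect, and up to 3 called members per list with the smallest adjusted p. Some genes taken by the rule are left out of the text. Transcript classes, and levels taken from the A375 libraries alone, were added after values were seen. GENCODE v29 gave transcript types and gene coordinates, and RefSeq gave the promoter windows. Alternatives were other pseudocounts and filters, median scaling, quantile normalization, removal of mitochondrially encoded rows, a robust eBayes and one without trend, a replicate block, a fit joined with SK-Hep1 and leaving out each library.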

Additional observations from a re-analysis of the deposited data

Results flagged for a closer look

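The knockdown effects of A375 and SKBR3-labelled cells differed, by the test of the difference itself, for 8643 genes, of which 533 were higher in A375 and lower in SKBR3-labelled cells and 1074 were lower in A375 and higher in SKBR3-labelled cells. For the 8 genes of each opposite pattern that the naming rule took by their smaller within-line effect, the differences on the log2(TPM + 1) scale were 3.24 for ATF3, 3.16 for CHAC1, 3.6 for HMGA2, 3.26 for HMOX1, 2.73 for ARID3B, 2.15 for ASNS, 2.0 for ID2 and 1.84 for MEAK7. In the other direction they were -3.16 for ITGB4, -2.92 for DEPDC1, -2.58 for MBLAC2, -2.58 for CREBL2, -2.54 for RASSF5, -2.44 for TK2, -2.36 for HEXIM1 and -2.33 for AFAP1L2. The rule took only genes called in the difference whose 9 siGCDH minus siControl differences of A375 did not overlap the 9 of SKBR3-labelled cells. Both properties therefore follow from the choice and are no further result. Of all genes, 51.4% were called and 46.6% did not overlap.

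The mitochondrially encoded share of TPM changed by -0.139 percentage points in A375 and by 2.58 percentage points in SKBR3-labelled cells, where every siGCDH library lay above every siControl library. The difference between these shares was not itself tested.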

How the results depend on the processing

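With median scaling the difference called 3739 genes positive, and with quantile normalization 3858 positive and 3787 negative. In SKBR3-labelled cells median scaling called 4830 higher and 4163 lower, and quantile normalization 4254 higher and 4419 lower. Genes higher in A375 and lower in SKBR3-labelled cells numbered 826 with median scaling and 803 with quantile normalization, and those lower in A375 and higher in SKBR3-labelled cells 632 and 689. The GCDH difference ranged from -0.57 to -0.26 over the fits that left out 1 library, and was called only without the second SKBR3-labelled siGCDH library (limma, adjusted p = 0.0135) and, in an alternative chosen after seeing the data, over protein-coding nuclear rows rescaled to a common total (-0.49, limma, adjusted p = 0.0418). It was 0.27 with quantile normalization, the other sign, and -0.23 with median scaling, called in neither. With all mitochondrial rows, ribosomal and transfer RNAs included, the share in SKBR3-labelled cells rose by 2.82 percentage points. Leaving out 1 library gave 2244 to 2420 positive and 5579 to 6040 negative differences.

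Same-numbered siGCDH and siControl libraries did not deviate together (correlations of -0.03 to 0.06), so the numbers do not pair them, and the fit with the replicate block called 2279 positive and 5852 negative differences. Of 3023 recomputed calls of named genes 3009 kept their direction and side of the threshold, 13 (ROBO4 and EGFL7) no longer passed and 1 (NFE2L2 with median scaling) newly passed. Of 1728 recomputed list counts 89 moved by more than 1.5 times, and median scaling turned the balance of the DNA replication list to 11 positive and 5 negative. The causes were not tested.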
